A study of Mus musculus with 9 samples.

Results

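Id1, Id3, Skil and Tgif1 are 4 genes that act as brakes on transcription in T cells, 2 of them inhibitors of differentiation and 2 of them Smad corepressors. The search used 10 symbols (Id1, Id2, Id3, Smad3, Smad6, Smad7, Ski, Skil, Tgif1 and Tgfbr1), and 4 of them were among the 2889 genes of the deposited sample table. The other 6 symbols were in none of the deposited tables and were not analysed here. The samples were splenic T cells of wild-type C57BL/6 mice, purified for CD3 by removal of the other cells, and 3 mice gave 1 sample each in each of 3 media, 9 samples in all. Cells were held for 4 h in RPMI that had met no cells (unconditioned), in medium conditioned by stromal cells or in medium conditioned by adipocytes, and then RNA was sequenced. Neither the age of the mice nor the origin of the adipocytes and stromal cells is stated in the labels. As each medium was tried on the same 3 mice, the replicates are animals, but whether more than 1 batch of each conditioned medium was used is not stated.

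The values that put these genes into view were also the values of 1 comparison. The authors' sample table lists only genes that they had called changed beyond 1.5-fold in adipocyte or stromal medium, and all 4 genes stand in the authors' adipocyte table and none in their stromal table. Their adipocyte values are therefore given as a description without a test. The authors' adipocyte fold change sets adipocyte against unconditioned samples, so stromal against unconditioned medium was tested. Their mean signal for the 4 genes is that of all 9 samples, so the stromal samples were not kept apart from it. The stromal test shares the unconditioned samples with the authors' choice, and absence from their stromal table itself depends on the stromal values. The 10 symbols were also picked with earlier results of these data known. The stromal p-values are therefore not independent of the choice of genes. Adipocyte against stromal medium is described by its difference and 95% interval.

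Id proteins carry a helix-loop-helix domain but no DNA-binding region. They pair with E proteins, the transcription factors that steer lymphocyte development and restrain naive T cells, and keep them off DNA. Id1 and Id3 are textbook targets of bone morphogenetic protein (BMP) signals through Smad1 and Smad5, and Id3 is an abundant Id gene of resting T cells, which T cell receptor signals also act on. Skil encodes SnoN and Tgif1 a homeodomain protein, and both sit on Smad2 and Smad3 complexes and repress the targets of transforming growth factor beta (TGF-beta). SnoN is destroyed and its gene then induced by TGF-beta, which makes it a feedback brake.

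Reads on the listed genes came to between 6522742 and 13758643 per sample. In the fit over all 2868 genes with a mean of at least 1 normalized count, 97.2% of genes were past an adjusted p of 0.05 (limma, Benjamini-Hochberg) when adipocyte was set against unconditioned medium, with 969 of them higher and 1818 lower. In stromal against unconditioned medium 57.7% were (606 higher, 1049 lower), and in adipocyte against stromal medium 91.0% (968 higher, 1641 lower). A median-of-ratios rescaling on the listed genes changed these splits to 1078 and 1047, 1129 and 561, and 1172 and 1090, and moved the median log2 fold change of all genes by 0.93, 0.36 and 0.57, so a direction near 0 depends on the scaling. DESeq2's own size factors gave splits of 1090 and 1042, 1173 and 584, and 1178 and 1090, and TMM gave 805 and 826 in the stromal comparison. Markers of other cells moved with adipocyte medium. The summed level of the 10 B cell markers in the table, of 20 on the list, ran from 11225 to 14525 in unconditioned, 11754 to 17661 in stromal and 4256 to 5925 in adipocyte medium, and that of 10 of 24 myeloid markers from 7886 to 12440, 8473 to 13794 and 2442 to 3087. The 5 T cell markers in the table, of 20 on the list, among them Cd3e and Cd8a, summed to between 98628 and 110847, 82488 and 83851, and 39069 and 42086. No marker of these 3 lists was at 0 in all samples of a medium. The authors had listed all 10 B cell, 9 of the 10 myeloid and all 5 T cell markers for adipocyte medium. For stromal medium they had listed 0, 1 and 0 of them, so the sums in part repeat that choice. The 9 neutrophil markers of 15 summed to between 2312 and 3770 over all media. In adipocyte against unconditioned medium 3 of them were higher and 6 lower, near the 33.8% and 63.4% of all genes. Their median log2 fold change was -1.75, against -1.03 for all genes. The 4 natural killer markers of 10 summed to between 5009 and 8753. Of the adipocyte, stromal and endothelial lists 1 gene each was in the table (Lpl, Vim and Pecam1), and Lpl lay between 0 and 12.7 in adipocyte medium against 28.6 to 104.6 in unconditioned and 156.3 to 192.8 in stromal medium. In bulk RNA fewer cells of a type and less RNA per cell cannot be told apart, and the part of cell makeup in the values of the 4 genes was not tested.

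On the deposited scale each of the 4 genes had a pattern of its own over the media. Id1 was lowest in unconditioned, higher in stromal and highest in adipocyte medium. Id3 was highest in unconditioned medium and at a like, lower level in both conditioned media. Skil and Tgif1 were high in adipocyte medium, while in stromal medium Skil was lower and Tgif1 was near its unconditioned level. Under median of ratios Id3 in adipocyte medium was at 0.04 on the log2 scale against unconditioned and at 0.45 against stromal medium. Skil in stromal against unconditioned medium was then at -0.02, so these parts of the patterns depend on the scaling. In the authors' deposited clustering Id1, Skil and Tgif1 were placed in cluster 1, with 920 genes, and Id3 in cluster 2, with 1611.

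**Figure D1:**
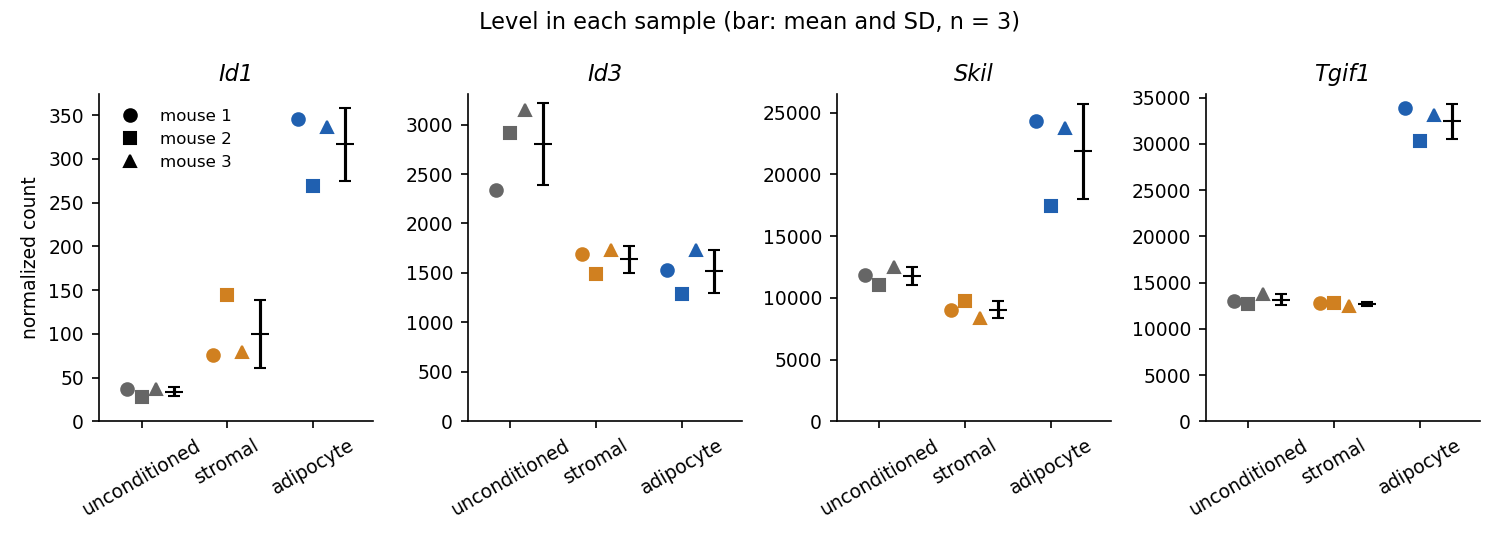
Normalized counts of the 4 genes in each sample, by medium, on linear axes that start at 0 and differ between genes; the symbol marks the mouse and the bar the mean with its SD (n = 3). Id1 steps up from unconditioned (27.8 to 37.1) to stromal (76.0 to 144) to adipocyte medium (269 to 345), whereas Id3 falls in both conditioned media, and Skil and Tgif1 are high in adipocyte medium alone of the 3.

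Id1 (ENSMUSG00000042745) was a scarce transcript in unconditioned medium. Its normalized counts were 37.1, 27.8 and 36.3 in mice 1, 2 and 3, from 26, 32 and 41 reads. In stromal medium they were 76.0, 144 and 79.0, from 91, 219 and 66 reads. In adipocyte medium they were 345, 269 and 336, from 240, 299 and 344 reads. The 3 media did not overlap, and the sample of mouse 2 stood above the others in stromal medium and below them in adipocyte medium. With so few reads, counting error alone spans 24.3 to 54.4 for mouse 1 in unconditioned medium (exact 95% Poisson interval, which covers counting error only), and 126 to 165 for mouse 2 in stromal medium, above the interval of 61.2 to 93.3 for mouse 1.

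Id1 rose in stromal medium by 1.48 on the log2 scale (SE 0.27, 95% interval 0.90 to 2.07, limma adjusted p = 4.98e-04), from 33.8 ± 5.17 to 99.8 ± 38.7 normalized counts (mean ± SD, n = 3), or 2.79-fold (1.86 to 4.2). The rise was seen in 3 of 3 mice, at 1.01, 2.34 and 1.10 for mice 1, 2 and 3. Without mouse 2 in any medium the log2 fold change was 1.06 (adjusted p = 0.00682). Only 4.25% of the tested genes had a higher log2 fold change in stromal medium. Of the 4 genes 3 were past the threshold in this comparison, against 57.7% of all genes tested and 49.5% of the 2396 tested genes that the authors had not listed as changed in stromal medium. The same 3 had stromal and unconditioned values that did not overlap, against 69.4% of all genes.

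In adipocyte medium Id1 stood at 317 ± 41.5 normalized counts, 9.16 times its unconditioned level (95% interval 6.10 to 13.7), and the 3 mice lay close together at 3.18, 3.23 and 3.17 on the log2 scale. It ranked 73 of 2868 genes by log2 fold change in that comparison. All 4 genes were past the threshold there, against 97.2% of all genes, which follows from how the table was made, and none overlapped (97.0% of all genes). From stromal to adipocyte medium Id1 differed by 1.71 (95% interval 1.13 to 2.30). That step was 0.89 in mouse 2 and 2.17 and 2.07 in mice 1 and 3, and 2.12 without mouse 2. In this last comparison 3 of the 4 genes were past the threshold, against 91.0% of all genes, and the same 3 did not overlap, against 89.6%.

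**Figure D2:**
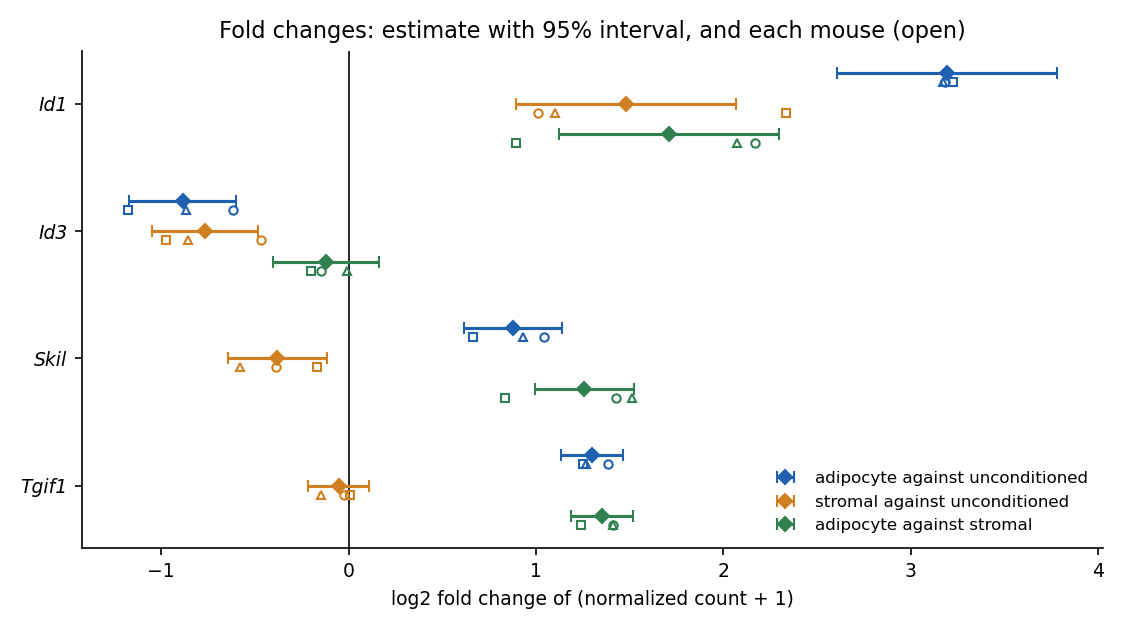
Log2 fold changes of (normalized count + 1) for the 4 genes in the 3 comparisons; diamonds are limma estimates with 95% intervals, and open symbols are the ratios of single mice (circle, square and triangle for mice 1, 2 and 3). Id1 lies right of 0 in all 3 comparisons, Id3 is left of 0 in both conditioned media with an interval across 0 between them, and Skil lies on opposite sides of 0 in adipocyte and stromal medium.

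The genes whose profile over the 9 samples was most like that of Id1 were sought among 2448 genes with a mean of at least 100 normalized counts. By Pearson correlation of log2 values they were Tceal9 (r = 0.996), Sik3, for a salt-inducible kinase (0.993), Rgs16, a brake on G protein signals (0.992), Sec24a, for a coat protein of vesicles leaving the endoplasmic reticulum (0.992), Hspa8, for the constitutive HSC70 chaperone (0.992), and Npepps, an aminopeptidase gene (0.991). The samples share mice and media, so these values describe the profile and carry no test. The correlation ignores the size of the steps. Tceal9 was at 0.70 in stromal and 1.43 in adipocyte medium on the log2 scale, Sik3 at 0.55 and 1.12, smaller steps than those of Id1. By distance between centred log2 values the nearest were Lgals7, for galectin-7, Tgm2, for transglutaminase 2, Rragd, for a Rag GTPase of lysosomal nutrient sensing, and Gzmb, for the cytotoxic protease granzyme B. Lgals7 was at 1.14 in stromal and 2.62 in adipocyte medium, Tgm2 at 1.18 and 3.50, Rragd at 1.92 and 2.88, and Gzmb at 1.31 and 3.8. With the mouse means removed, 2 of the 6 genes stayed among the 6 most alike, Tceal9 and Sik3, and Spearman's rho was 0.917 for Rgs16 and 1.00 for Sec24a. Among the other 3 genes of interest, Tgif1 correlated with Id1 at 0.856, Skil at 0.706 and Id3 at -0.839.

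Id3 (ENSMUSG00000007872) moved the other way on the deposited scale. It had 2341, 2916 and 3150 normalized counts in unconditioned medium for mice 1, 2 and 3, then 1692, 1485 and 1736 in stromal and 1526, 1291 and 1727 in adipocyte medium. Every conditioned value lay below every unconditioned value, and the stromal and adipocyte values overlapped. Each rests on at least 1061 reads, so counting error is small beside the spread between mice.

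Id3 fell in stromal medium from 2802 ± 416 to 1638 ± 134 (n = 3), that is by -0.77 on the log2 scale (95% interval -1.05 to -0.48, SE 0.13; adjusted p = 2.94e-04 in limma). It was lower in 3 of 3 mice, by -0.47, -0.97 and -0.86. In adipocyte medium Id3 lay near the median gene of the table. It stood there at 1515 ± 219, with -0.89 on the log2 scale (95% interval -1.17 to -0.60), and the median gene was at -1.03. After the median-of-ratios rescaling it was at 0.04 in adipocyte medium and still lower, at -0.41, in stromal medium (adjusted p = 0.0164), where the median gene was at -0.17 before and 0.19 after. Adipocyte and stromal medium differed by -0.12 on the deposited scale (95% interval -0.40 to 0.16), and by 0.45 after rescaling. B cells also express Id3, and the summed B cell markers given above were lower in adipocyte but not in stromal medium. In stromal medium 0 of the 10 were past the threshold (median 0.02), against 57.7% of all genes and 49.5% of those outside the authors' stromal table. The authors had listed all 10 for adipocyte and 0 for stromal medium, so this contrast in part repeats their choice. The part of B cells in the level of Id3 was not tested.

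A ratio of 2 genes within a sample has no library scaling in it, so the balance of the 2 Id genes was followed as the ratio of their reads. Id1 reads came to 1.59%, 0.954% and 1.15% of Id3 reads in unconditioned medium in mice 1, 2 and 3. The share was 4.49%, 9.72% and 4.55% with stromal medium. It was 22.6%, 20.9% and 19.5% with adipocyte medium. The 3 media did not overlap. The log2 ratio was higher by 2.28 in stromal than in unconditioned medium, 4.85-fold, with 1.5 to 3.35 in single mice (exact two-sided permutation p = 0.1, the smallest that 3 against 3 samples allow; 0.12 adjusted over 6 ratios). From unconditioned to adipocyte medium it was higher by 4.12, 17.4-fold, with 3.83 to 4.45 in single mice. These percentages compare reads and not molecules, since the transcripts differ in length, and only their change between media is read. The log2 ratios of Id1 to Tgif1 and to Skil were higher in stromal than in unconditioned medium by 1.56 and 1.89, without overlap. From stromal to adipocyte medium they differed by 0.37 and 0.46, and the values overlapped. In single mice that step ran from -0.34 to 0.77 for Tgif1 and from 0.06 to 0.75 for Skil.

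**Figure D3:**
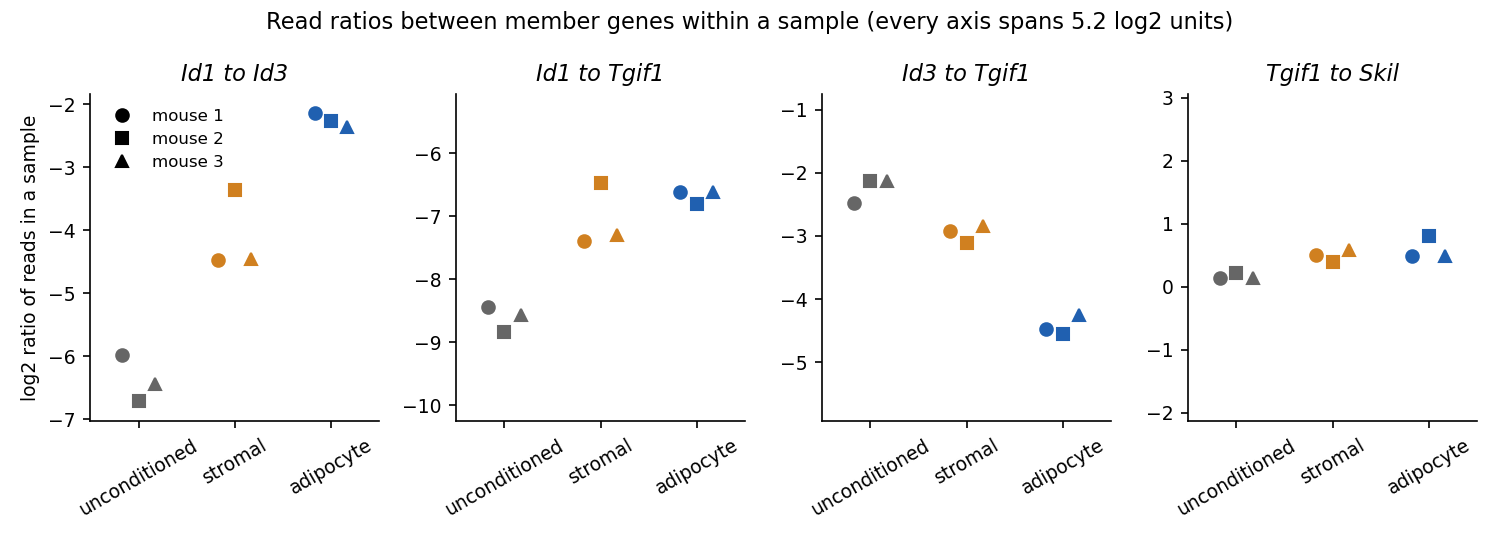
Log2 ratios of the reads of 2 genes within each sample, by medium; every axis spans the same 5.2 log2 units and the symbol marks the mouse. Id1 to Id3 climbs over the 3 media without overlap, Id3 to Tgif1 declines, and Tgif1 to Skil changes by less than 1 unit, with both conditioned media above the unconditioned one. Id1 to Tgif1 lies above its unconditioned values in both conditioned media, which overlap each other.

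Tgif1 (ENSMUSG00000047407) had the tightest values. It stood at 12963, 12729 and 13774 normalized counts in unconditioned and at 12758, 12813 and 12446 in stromal medium for mice 1, 2 and 3. In adipocyte medium it stood at 33911, 30297 and 33117. The adipocyte samples were apart from all others, and the other 2 media overlapped.

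In stromal against unconditioned medium Tgif1 differed by -0.05 (SE 0.08, limma adjusted p = 0.568), with a 95% interval of -0.22 to 0.11, that is 0.860 to 1.08 times the unconditioned level. The rescalings placed it at 0.03 (upper quartile), 0.09 (TMM) and 0.30 (median of ratios), so its direction in stromal medium turned with the scaling. It passed as higher under median of ratios (adjusted p = 0.0109) and under DESeq2 (0.30, adjusted p = 9.49e-04). In adipocyte medium its level was 2.46 times the unconditioned one (95% interval 2.20 to 2.76), with 1.39, 1.25 and 1.27 on the log2 scale in mice 1, 2 and 3. Against stromal medium the difference was 1.35 (95% interval 1.19 to 1.52).

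Skil (ENSMUSG00000027660) was lower in stromal and higher in adipocyte medium. Its normalized counts were 11828, 11000 and 12469 in unconditioned, 9030, 9779 and 8332 in stromal and 24335, 17440 and 23768 in adipocyte medium. No 2 media overlapped, and mouse 2 had the smallest change in both conditioned media. Skil fell in stromal medium by 0.38 on the log2 scale (SE 0.12, 95% interval -0.64 to -0.12, limma adjusted p = 0.0172), from 11765 ± 736 to 9047 ± 724 (n = 3), and was lower in 3 of 3 mice. That call rested on single samples and on the scaling. It ended without stromal replicate 3 (-0.32, adjusted p = 0.0662), without unconditioned replicate 3 (-0.34, 0.0677), without mouse 1 (-0.38, 0.0881) or mouse 3 (-0.28, 0.165) in every medium, and under TMM (-0.23, 0.124) and median-of-ratios scaling (-0.02, 0.90).

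In adipocyte medium Skil stood at 21848 ± 3828, a log2 fold change of 0.88 (95% interval 0.62 to 1.14), and against stromal medium at 1.26 (1.00 to 1.52). Set against each other within a sample, Tgif1 reads came to 110%, 116% and 110% of Skil reads in unconditioned medium in mice 1, 2 and 3, against 141%, 131% and 149% with stromal and 139%, 174% and 139% with adipocyte medium. The log2 ratio was thus higher by 0.33 in stromal than in unconditioned medium, in 3 of 3 mice (exact two-sided permutation p = 0.1; 0.12 adjusted over 6 ratios). Between the 2 conditioned media it differed by 0.10, and the values overlapped. The share of Id3 reads relative to Tgif1 reads went from between 18.1% and 22.9% in unconditioned to between 11.6% and 14.0% in stromal and between 4.26% and 5.22% in adipocyte medium, with no overlap.

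**Figure D4:**
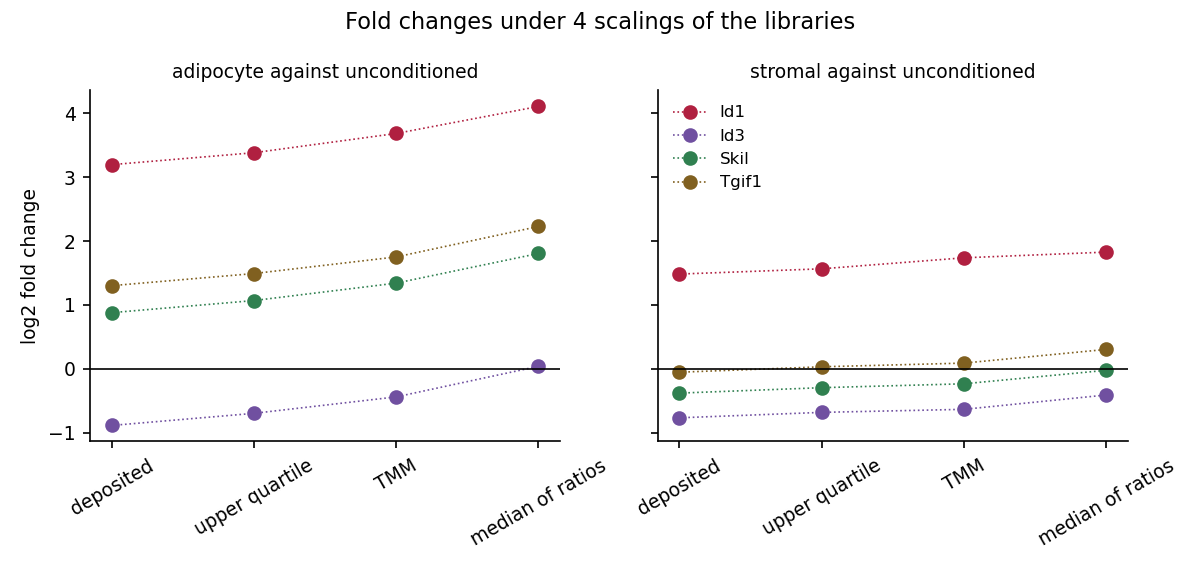
Log2 fold changes of the 4 genes under 4 scalings of the libraries (deposited, upper quartile, TMM in edgeR, and median of ratios), for adipocyte (left) and stromal (right) against unconditioned medium; dotted lines only join the points of a gene. All genes shift upward together, Id1 stays above 0 throughout, Id3 reaches 0.04 in adipocyte medium under median of ratios, and Tgif1 crosses 0 in stromal medium.

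RefSeq promoters (GRCm38.p6) were at hand for Id3 and Tgif1. Id1 and Skil had no entry. Shown are the 250 bases before the start of Id3, chr4:136143572-136143821 on the plus strand, and before the farthest upstream of 5 listed starts of Tgif1, chr17:70853533-70853782 on the minus strand, 5′ to 3′. Capitals mark matches, on either strand, to CANNTG (the E-box of E proteins), CAGAC (part of the Smad binding element), GGCGCC and GGAGCC (GC-rich elements bound by BMP Smads), TGACG (part of the cAMP response element) and TGANTCA (AP-1).
Id3: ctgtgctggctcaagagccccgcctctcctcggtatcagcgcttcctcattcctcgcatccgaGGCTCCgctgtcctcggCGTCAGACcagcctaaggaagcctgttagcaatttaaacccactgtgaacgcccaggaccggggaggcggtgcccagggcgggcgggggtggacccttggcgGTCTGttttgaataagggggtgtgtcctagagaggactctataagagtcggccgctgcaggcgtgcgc
Tgif1: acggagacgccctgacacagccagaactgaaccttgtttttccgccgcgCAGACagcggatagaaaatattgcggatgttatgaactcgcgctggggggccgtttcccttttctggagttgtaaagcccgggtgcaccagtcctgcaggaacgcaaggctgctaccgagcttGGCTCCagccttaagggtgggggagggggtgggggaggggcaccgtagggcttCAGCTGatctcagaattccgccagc
The Id3 window held 2 CAGAC matches, 1 GGAGCC match and 1 TGACG match that overlaps a CAGAC match. The Tgif1 window held 1 CAGAC, 1 GGAGCC and 1 CANNTG match. Of 32851 promoter windows of the same length, 42.2% held CAGAC, 26.0% GGAGCC, 17.8% TGACG and 66.2% CANNTG, so such matches are common and describe only the letters of these windows. The reads do not tell which start of Tgif1 was used.

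The wider TGF-beta and BMP pathway was taken from 6 lists by role with 131 genes beside the 10 symbols, of which 31 were in the table and tested. In adipocyte medium 23 were higher, 6 lower and 2 not past the threshold (median log2 fold change 1.37), against 33.8% of all tested genes higher and 63.4% lower (median -1.03). Of the 31 genes the authors had listed 28 as changed in adipocyte medium and 5 in stromal medium, so the adipocyte count repeats that choice. In stromal medium 10 were higher, 6 lower and 15 not past the threshold (median 0.25), against 21.1% higher and 36.6% lower of all genes (median -0.17). Median-of-ratios scaling gave 17 higher and 3 lower in stromal medium. DESeq2 and TMM gave 17 higher as well. From stromal to adipocyte medium 25 were higher and 6 lower, against 33.8% and 57.2% of all genes.

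**Figure D5:**
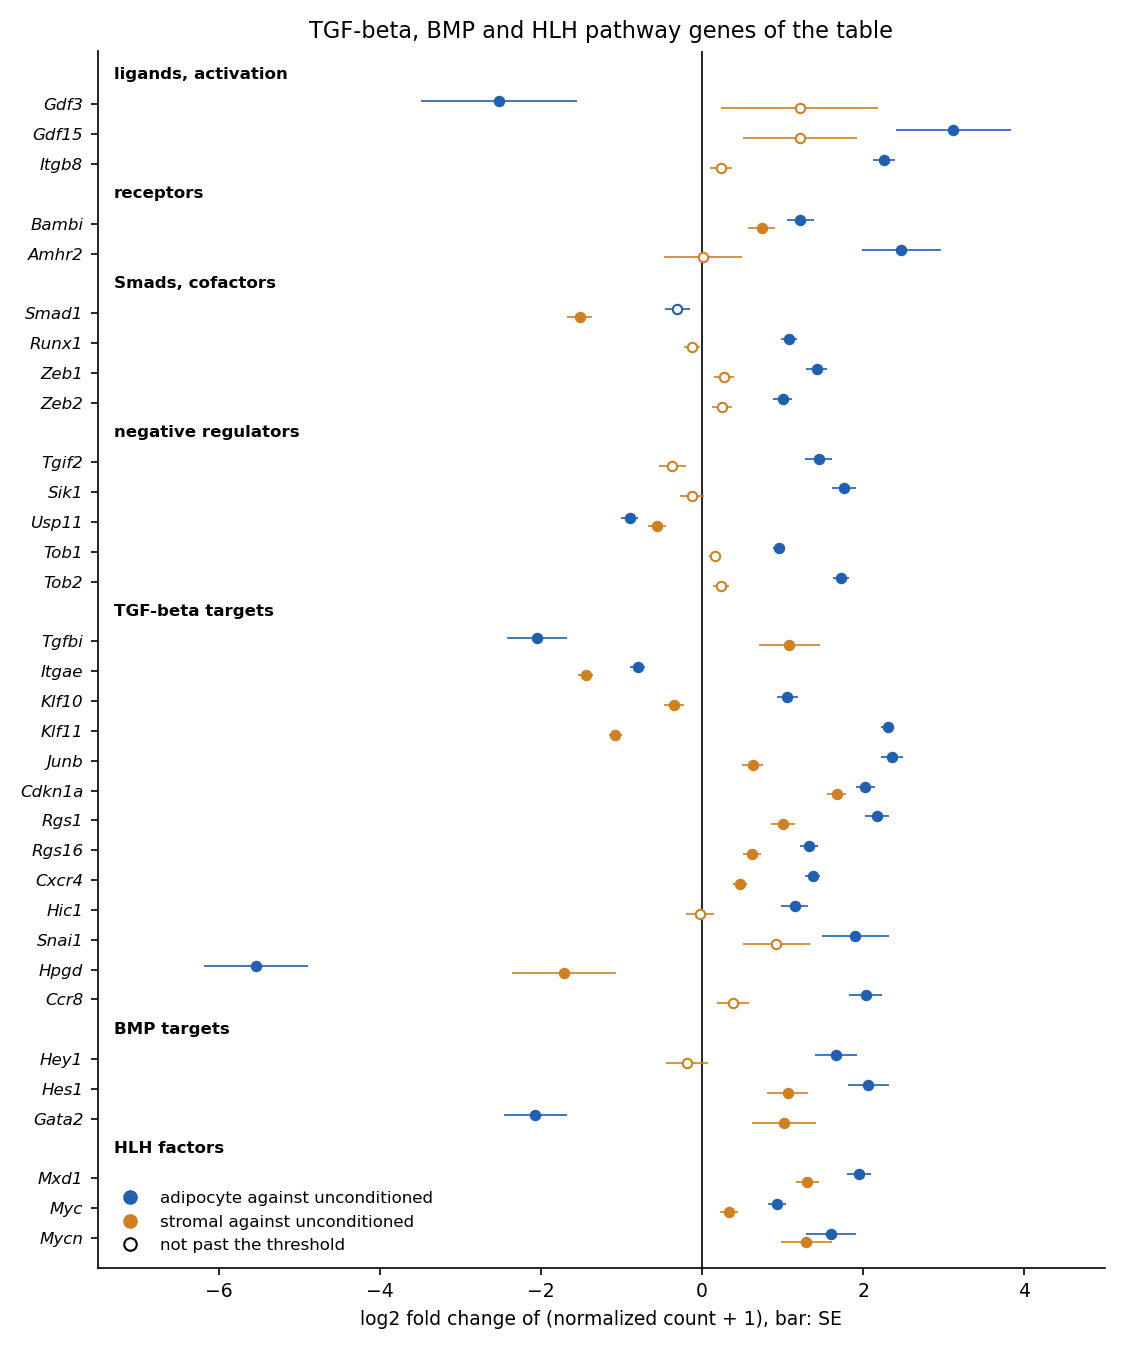
Log2 fold changes of (normalized count + 1) with SE for pathway genes of the table, grouped by role, in adipocyte (blue) and stromal (orange) against unconditioned medium; open symbols did not pass an adjusted p of 0.05, and a gene on several lists is drawn once. Most blue points lie right of 0, while orange points lie nearer 0 with Smad1, Itgae, Klf11 and Hpgd at -1.08 or below. Gdf3 had no read in adipocyte medium, so its drawn value depends on the added count.

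Ligands and their activators were sparse. Itgb8, for the integrin beta chain that frees latent TGF-beta, went from 366 ± 19.7 in unconditioned to 434 ± 72.5 in stromal (log2 fold change 0.24, limma adjusted p = 0.159) and 1758 ± 161 in adipocyte medium (2.26), and it passed as higher in stromal medium under median of ratios, TMM and DESeq2 (adjusted p = 0.00433, 0.0209 and 2.10e-04). Gdf15, a stress-induced relative of TGF-beta, had 1.84 ± 1.60 normalized counts in unconditioned and 21.9 ± 12.3 in adipocyte medium, from at most 37 reads. Gdf3 had no read in any adipocyte sample.

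At the receptors, Bambi, a decoy receptor without kinase that damps TGF-beta and BMP signals, followed the order of Id1 in its means. It rose in stromal medium from 217 ± 22.8 to 363 ± 35.6 (log2 fold change 0.74, SE 0.17, limma adjusted p = 0.0023) and stood at 510 ± 98.4 in adipocyte medium. In mouse 2 it was at 404 in stromal and 399 in adipocyte medium, so these 2 media overlapped. Amhr2, for the receptor of anti-Müllerian hormone, was at 7.52 ± 3.56, 7.5 ± 3.82 and 43.4 ± 6.73 in unconditioned, stromal and adipocyte medium.

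Smad1, which carries the BMP signal to the Id genes, did not follow Id1. It was at 3028 ± 210 in unconditioned and 1057 ± 30.2 in stromal medium (log2 fold change -1.52, SE 0.16). It is in the table only because the authors called it in that comparison, so no test is given. In adipocyte medium it was at 2510 ± 692 (-0.31, limma adjusted p = 0.0756), but at 0.62 under median of ratios, where it passed as higher (adjusted p = 0.00489). The cofactor genes Runx1, Zeb1 and Zeb2 were at 1.08, 1.42 and 1.00 in adipocyte medium. In stromal medium they were at -0.12, 0.27 and 0.25, with adjusted p-values of 0.326, 0.0894 and 0.0975, and the sign for Runx1 turned under a rescaling. Zeb1 and Zeb2 passed as higher there under all 4 rescalings (adjusted p at most 0.0343 and 0.0418).

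Among negative regulators Tgif2, the close relative of Tgif1, had a profile like that of Skil. It was at 234 ± 45.7, 179 ± 12.1 and 639 ± 85.6 in unconditioned, stromal and adipocyte medium, with -0.37 for stromal medium on the log2 scale (limma adjusted p = 0.0803, SE 0.17). Sik1, a kinase gene induced by TGF-beta that helps remove its receptor, and Tob1 and Tob2, antiproliferative genes of which Tob1 can bind Smads, were at 1.76, 0.96 and 1.72 in adipocyte medium and at -0.12, 0.16 and 0.24 in stromal medium, where none passed on the deposited scale (adjusted p from 0.0517 to 0.516). Tob1 and Tob2 passed as higher there under all 4 rescalings (adjusted p at most 0.00943 and 0.01), and the sign for Sik1 turned. Usp11, for a deubiquitinase that stabilises the type I receptor, fell in stromal medium by 0.56 (adjusted p = 7.65e-04), a call that ended under a rescaling, and stood at -0.90 in adipocyte medium, where its sign also turned under a rescaling.

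Of 13 TGF-beta target genes 10 were higher and 3 lower in adipocyte medium, against 33.8% and 63.4% of all genes, and 12 of the 13 had been listed by the authors for that comparison. In stromal medium 6 rose, 4 fell and 3 did not pass, against 21.1% and 36.6% of all genes, and 3 of the 13 had been listed for it. Klf11 and Klf10, early TGF-beta response genes for Krüppel-like repressors, had the same pattern as Skil, lower in stromal and higher in adipocyte medium. Klf11 went from 1190 ± 76.3 to 562 ± 10.9 in stromal (log2 fold change -1.08, SE 0.08) and to 5875 ± 171 in adipocyte medium (2.30). The authors had listed Klf11 in both comparisons, so no test is given for it. Klf10 fell in stromal medium by 0.35 (adjusted p = 0.0334), a call that ended and turned in sign under a rescaling, and was at 1.06 in adipocyte medium.

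Other targets moved apart from these. Itgae, for the CD103 integrin chain that TGF-beta induces on resident T cells, was at 3502 ± 455 in unconditioned medium. In stromal medium it was at 1282 ± 74.0 (log2 fold change -1.44), and it is in the table only through that comparison, so no test is given. In adipocyte medium it was at 2000 ± 44.1 (-0.80), 1 of the 3 targets counted as lower there. Its sign turned there under median of ratios (0.13, adjusted p = 0.269) and DESeq2 (0.12, adjusted p = 0.34), where it did not pass. Hpgd, for the enzyme that degrades prostaglandin E2 and a gene of regulatory T cells, went from 140 ± 71.7 to 40.3 ± 14.4 in stromal medium and had 2.88 ± 3.54 in adipocyte medium; its stromal call (-1.71, adjusted p = 0.0381) ended under a rescaling. Cdkn1a, the p21 cell cycle inhibitor gene that E proteins also act on, went from 730 ± 45.8 to 2337 ± 325 in stromal medium (1.67; listed by the authors for it, so no test is given). Rgs1, Junb, Rgs16 and Cxcr4 rose in stromal medium by 1.01, 0.63, 0.62 and 0.47 and were further up in adipocyte medium, at 2.17, 2.36, 1.33 and 1.37. Hic1, Snai1 and Ccr8 were at 1.15, 1.90 and 2.03 in adipocyte medium and at -0.02, 0.92 and 0.38 in stromal medium, where none passed on the deposited scale (adjusted p = 0.915, 0.0755 and 0.121). The sign for Hic1 turned under a rescaling, and Snai1 and Ccr8 passed as higher under median of ratios (adjusted p = 0.022 and 0.0124), TMM and DESeq2. Tgfbi, a secreted matrix protein gene that macrophages also express, went from 102 ± 43.2 up to 207 ± 32.4 in stromal medium (1.09, adjusted p = 0.026) and stood at 24.1 ± 10.3 in adipocyte medium, where the summed myeloid markers were also lower.

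Of 4 BMP target genes in the table, Hes1, a helix-loop-helix repressor of the Notch pathway, rose like Id1 in stromal medium (40.6 ± 8.36 to 85.6 ± 14.6, log2 fold change 1.06, SE 0.26, limma adjusted p = 0.00356) and stood at 174 ± 37.0 in adipocyte medium. Its relative Hey1 was at 67.3 ± 1.86, 59.2 ± 4.79 and 225 ± 83.2 in unconditioned, stromal and adipocyte medium, with a stromal sign that turned under a rescaling. Gata2, a transcription factor gene of blood progenitors and mast cells, was at 348 ± 36.9, 714 ± 151 and 96.7 ± 63.6.

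The E protein genes Tcf3, Tcf4 and Tcf12, the partners of Id proteins, were not among the listed genes. Of 18 genes of E proteins and other helix-loop-helix factors 5 were in the table, and 4 of them rose in stromal medium (Hes1, Mxd1, Myc and Mycn), against 21.1% of all genes. Mxd1, a Myc antagonist, went up by 1.31 and Mycn by 1.30, from 59.1 ± 17.9 to 149 ± 56.6, while Myc went up by 0.33. The authors had listed Mxd1 for that comparison. All 5 were higher in adipocyte medium, against 33.8% of all genes. The authors had listed all 5 for adipocyte medium, so this count repeats that choice. Of 28 genes regulated by E proteins in lymphocytes, 9 were tested, and 5 rose and 2 fell in stromal medium (median 0.30), while 3 were higher and 5 lower in adipocyte medium (median -0.89), against 21.1% and 36.6%, and 33.8% and 63.4%, of all genes. The authors had listed 4 of the 9 for stromal and 7 for adipocyte medium. S1pr1, for the receptor of cell exit from lymphoid tissue, was at -1.08 in stromal medium on the log2 scale and is in the table only through that comparison. Socs1 and Socs3, for inhibitors of cytokine receptor signals, were higher there by 1.97 and 0.88, and stood at 0.16 (adjusted p = 0.167) and 1.17 in adipocyte medium. Socs1 is in the table only because the authors called it in the stromal comparison. In adipocyte medium it passed as higher under all 4 rescalings (adjusted p at most 0.00968), at 0.35 with the upper quartile and 1.09 under median of ratios. Cd8a, for a T cell coreceptor chain, rose in stromal medium by 0.30 and was at -2.14 in adipocyte medium. The B cell receptor genes Cd79a and Cd79b, which are part of the B cell marker sum given above, were at -1.68 and -2.49 in adipocyte medium. They did not pass in stromal medium (-0.46 and -0.11, the latter with a sign that turned under a rescaling). Gfi1, a repressor gene that acts downstream of E proteins, rose there by 0.56 (adjusted p = 3.32e-04) and was at 1.09 in adipocyte medium.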

How the data were processed

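RNA-seq of 9 samples was analysed. Per the labels' protocols, cDNA came from SMART-seq v4 and libraries from Nextera XT, which keeps no strand; no other annotated gene overlaps the 4 genes in GENCODE M21. Tools named in the submitters' processing notes are DESeq2, featureCounts, FastQC and Trimmomatic, with the builds GRCm39, GRCh38 and hg38, without roles. No aligner is named there. The deposited sample table holds a normalized signal, read counts that the authors divided by 1 size factor per sample, as 100% of values are whole multiples of a step within 0.001 reads. Reads were recovered from those steps. The authors' tables give, per the file headers, a mean signal, a log2 fold change with SE, a Wald score and the p-value before and after adjustment, and the authors' other column is a cluster number. The Wald score equals a test beyond 1.5-fold within 5.72e-04.

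The model used limma-trend (limma 3.58.1 in R 4.3.3) on log2 of the deposited value + 1, for the 2868 genes averaging 1 or more, with the 3 media in 1 fit, two-sided p-values and Benjamini-Hochberg adjustment over all genes at 0.05. On that scale the fold change of a low gene comes out too small. The design reserved edgeR as the test for raw counts, which these values are not. On the recovered reads the quasi-likelihood test of edgeR 4.0.16 with the deposited size factors called 2784, 1685 and 2611 genes, against 2787, 1655 and 2609 in limma, in the order adipocyte with unconditioned, stromal with unconditioned, adipocyte with stromal (this edgeR setting was chosen after seeing the data); DESeq2 1.42.0 was a further alternative. Scripts were tested on simulated data. Replicates differed by more than sampling noise (chi-square per degree of freedom from 10.2 to 96.7). Samples of a number come from the same mouse per the labels; deviations from the group means correlated from -0.12 to 0.26 between same-mouse samples.

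The genes and lists were chosen with earlier results of these data known. Genes named are those of the 10 symbols, the genes of the pathway, helix-loop-helix and E protein lists in the table, and the genes most like Id1, 6 by correlation and 4 by distance, leaving out unnamed gene models. A few list genes enter the counts and medians but are not reported here by name.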

Additional observations from a re-analysis of the deposited data

How the results depend on the processing

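Not all of the 24 alternatives a comparison could move a log2 fold change. Other filters on the mean, no trend, the mouse block and only the 2 media compared left it as it was. So did leaving out a sample of the third medium, and these act only on the p-value. Over 24 alternatives a comparison, Id1 kept its direction and its side of the threshold in all 3 comparisons, from 1.06 to 1.95 in stromal against unconditioned medium and from 2.90 to 4.17 in adipocyte against unconditioned medium. Id3 kept both in stromal medium (-0.92 to -0.41), and Skil and Tgif1 in adipocyte against both other media. Other values changed where the libraries were rescaled on the listed genes, and the call for Skil in stromal medium also ended in 4 of the 12 fits that left out a sample or a mouse. Id3 in adipocyte against unconditioned medium was at 0.040 under median of ratios and 0.042 under DESeq2, and against stromal medium at 0.45, 0.46 and, with TMM, 0.19. Tgif1 in stromal medium was at 0.30 under median of ratios, 0.30 under DESeq2, 0.090 with TMM and 0.032 with the upper quartile. Skil in stromal medium was at -0.023 (median of ratios), -0.020 (DESeq2) and -0.23 (TMM), and from -0.49 to -0.28 when 1 sample or 1 mouse was left out. With the mouse as a replicate block Id1 in stromal medium was at 1.48 (adjusted p = 0.0011), and the block changed no call of the 4 genes. The median of the 31 pathway genes was 2.30, 2.31, 1.83 and 1.56 under median of ratios, DESeq2, TMM and upper quartile in adipocyte against unconditioned medium, 0.61, 0.62 and 0.40 under the first 3 of these in stromal medium, and 1.72 and 1.70 under the first 2 in adipocyte against stromal medium; 17, 17 and 17 of them rose in stromal medium under median of ratios, DESeq2 and TMM, and 3 fell under median of ratios. For Id1 depth limits the precision, at 26 to 41 reads in unconditioned medium.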
